A study of Mus musculus with 2 samples.

Results

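The guanylate-binding proteins (GBPs) and the immunity-related GTPases (IRGs) are GTP-hydrolysing proteins that interferons induce in most mouse cells. The genes described are 10 of the 32285 genes counted: the GBP genes Gbp2, Gbp2b, Gbp3, Gbp4, Gbp5 and Gbp7, and the IRG genes Iigp1, Igtp, Irgm1 and Irgm2. They were picked by symbol as 1 gene family, and the choice drew on these same libraries, in which a large increase of Gbp2b in knockout neutrophils had already been seen. That value is therefore given as a description, and it supports nothing else in the text.

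Whole pancreatic tumours were profiled by 3′ single-cell RNA sequencing (10x Genomics Chromium v3.1), which counts unique molecular identifiers (UMIs, 1 per captured transcript). The tumours grew from KPC mouse pancreatic cancer cells implanted into the pancreas and were taken on day 21. The control library pooled the tumours of 5 mice with the floxed Porcn allele and no Cre named in the label (Porcnfl/fl), and the knockout library pooled those of 5 Csf1r-Cre;Porcnfl/fl littermates. Both groups thus carry the floxed allele, and Porcn encodes the acyltransferase that Wnt proteins need for secretion. Cre is driven by the promoter of Csf1r, a macrophage growth factor receptor gene, and the labels give the same KPC implantation for both groups. With 1 library per group there was no test and no p-value. Each interval below is an exact 95% interval that covers counting error only, not differences between mice or between preparations.

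Cell classes were rebuilt from marker genes, and the 10 genes were left out of the clustering, so "neutrophil-like" and the like name clusters, not sorted cells. After filtering, 11516 control and 10467 knockout cells remained, with medians of 12168 and 10109 UMIs per cell, and 46 barcodes occurred in both libraries. Porcn itself had 8 UMIs in control and 4 in knockout monocyte/macrophage-like cells, too few to check the genotype, and the labels do not say which exons are deleted. Csf1r was at 238.3 counts per 1000000 UMIs (CPM) in control monocyte/macrophage-like cells and at 29.98 CPM in control neutrophil-like cells. Clusters that could not be named held 30.7% of the control cells and 13.3% of the knockout cells.

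GBPs assemble on membranes of vacuoles and on cytosolic bacteria, help to break them open and promote inflammasome signalling. IRGs divide into effectors such as Irga6, encoded by Iigp1, which load onto pathogen vacuoles, and the regulators Irgm1, Irgm2 and Irgm3 (encoded by Igtp), which sit on the cell's own membranes and keep the effectors inactive there. Interferon gamma induces both families, whose promoters are known for gamma-activated sequences (GAS) and for interferon-stimulated response elements (ISREs), the latter bound by IRF factors.

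The promoters are shown because these genes are known interferon targets, and the letters common to them can be set beside levels that did not move alike. Sequences are from RefSeq on GRCm38.p6 and cover 250 bases before to 50 bases after each annotated start. Of the 10 genes, 8 matched, with 9 windows since Gbp3 has 2. Gbp4 and Iigp1 are named only. A set of 6 motifs was searched on both strands after the values were known, and all are listed. The ISRE core, GAAA repeated after any 2 bases, was found in all 8 genes (8 of their 9 windows), against 3.44% of the 32851 promoter windows of all genes. A longer form, the core followed by any base and a T, overlaps a core at each match and was found in 6 of the 8 (not in Igtp or Irgm2), against 0.834%. The GAS form TTCNNNGAA was found in 4 (Gbp5, Gbp7, Igtp and Irgm2), against 8.30%. The same with 4 bases between TTC and GAA was found in Gbp3 alone, against 6.95%, and TATAAA in Gbp3 alone, against 13.6%. An NF-kappaB consensus of 10 bases was found in none of the 8, against 0.155%. A match is a description of letters, not evidence of binding. The lines below give, for each gene, the ISRE core in capitals with up to 20 bases on either side, 5′ to 3′ on the gene's strand (where 2 cores overlap, the one farther from the start for Gbp3 and Irgm1).
Gbp2b (chr3:142594690-142594739, plus strand): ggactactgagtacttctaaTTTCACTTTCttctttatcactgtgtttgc
Gbp2 (chr3:142620584-142620633, plus strand): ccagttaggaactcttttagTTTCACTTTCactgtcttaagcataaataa
Gbp3 (chr3:142559979-142560028, plus strand): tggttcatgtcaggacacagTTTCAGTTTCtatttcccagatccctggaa
Gbp5 (chr3:142496749-142496798, plus strand): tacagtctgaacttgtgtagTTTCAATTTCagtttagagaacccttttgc
Gbp7 (chr3:142530263-142530312, plus strand): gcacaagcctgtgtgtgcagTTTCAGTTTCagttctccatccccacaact
Igtp (chr11:58199502-58199551, plus strand): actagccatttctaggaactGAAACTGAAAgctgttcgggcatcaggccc
Irgm2 (chr11:58214893-58214942, plus strand): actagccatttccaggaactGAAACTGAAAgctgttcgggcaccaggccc
Irgm1 (chr11:48871421-48871470, minus strand): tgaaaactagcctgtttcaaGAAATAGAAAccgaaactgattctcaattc

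In the 5 GBP genes the core lay on the strand opposite to the gene, and in the 3 IRG genes on the gene's own strand. The core began 137 bases before the start of Gbp2b, 59 before that of Gbp2 and 165 before that of Gbp5. The Gbp5, Gbp7, Igtp and Irgm2 windows carried both an ISRE core and a GAS form. Core and GAS form began 34 and 45 bases before the start of Igtp and 64 and 75 before that of Irgm2. For Gbp7 the core began at 53 and GAS forms at 87 and 106. For Gbp5 the core began at 165 and GAS forms at 52 and 245.

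In the GRCm38 annotation (GENCODE M21), 5 of the GBP genes are neighbours on the plus strand of chromosome 3, in the order Gbp5, Gbp7, Gbp3, Gbp2b and Gbp2. Gbp2b spans chr3:142594847-142619179 and Gbp2 spans chr3:142620602-142638008. Gbp4 lies apart on the minus strand of chromosome 5 (chr5:105115767-105139586). Igtp (chr11:58199556-58207591) lies almost wholly inside the Irgm2 gene model (chr11:58199618-58222782) on the same strand, and GBP genes resemble each other in sequence. How the counting treated such reads is not given in the sources used here, so the split of UMIs between Igtp and Irgm2, and between close GBP copies, is uncertain.

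Epithelial/tumour-like cells held most of the family's transcripts. They carried 75.7% of the 10 genes' UMIs among all kept control cells and 81.3% among knockout cells. These shares leave out the unnamed clusters C1, C4 and C7, whose best-scoring class was also epithelial/tumour. Those clusters held 35157, 2613 and 31725 of the UMIs in control cells and 16624, 3980 and 10340 in knockout cells. The difference between the 2 shares thus depends on the naming and is not read as a change. Summed over the 10 genes, the level in the control library was 2384 CPM in epithelial/tumour-like cells (interval 2375 to 2393), 893.1 in monocyte/macrophage-like cells, 623.2 in fibroblast-like, 570.8 in neutrophil-like, 510.7 in T-like, 475.4 in cDC1-like and 188.2 in plasma-like cells. The intervals of neighbours overlapped from fibroblast-like down to cDC1-like cells, so that neighbours among those 4 classes were not separated. The fibroblast-like interval (607.9 to 638.8) did lie above those of T-like (457.3 to 568.6) and cDC1-like cells (412.5 to 545.1). In the knockout library neutrophil-like cells stood at 1946 CPM, above monocyte/macrophage-like cells at 1141 and below epithelial/tumour-like cells at 2822. Fibroblast-like cells stood at 400.7, below T-like cells at 613.1.

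**Figure D1:**
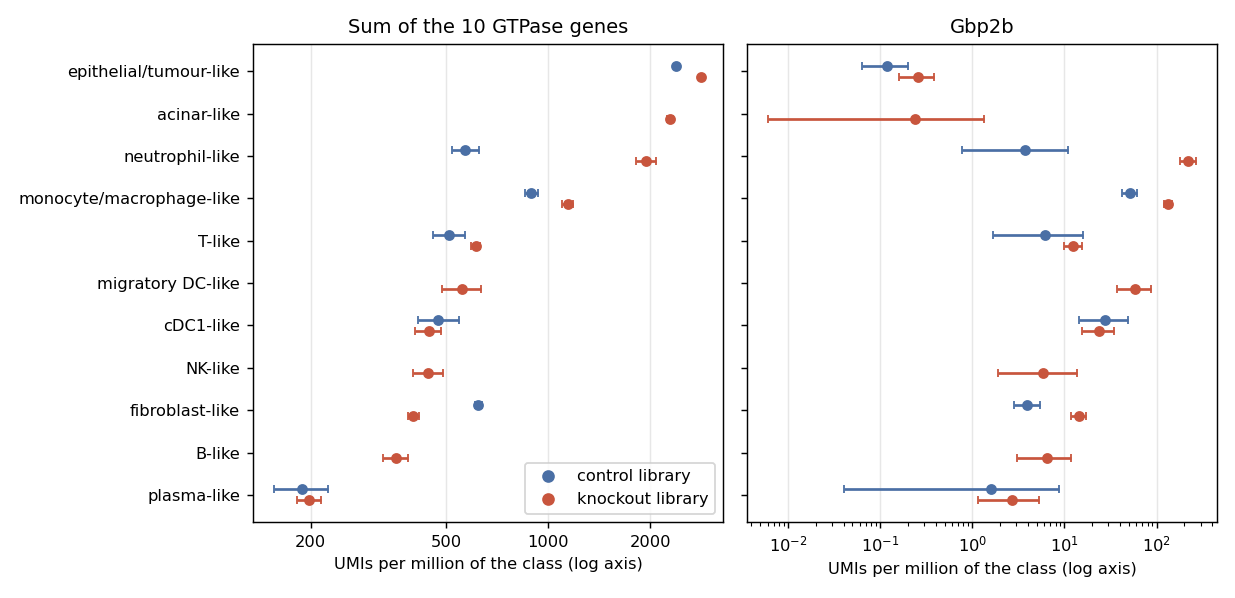
Level of the sum of the 10 GTPase genes (left) and of Gbp2b (right), in CPM of the class on log axes, for each cell class with at least 50 cells in a library; points are the control and knockout libraries and bars are exact 95% Poisson intervals. Neutrophil-like cells moved from 570.8 to 1946 for the sum and from 3.75 to 220.2 for Gbp2b, while epithelial/tumour-like cells were highest for the sum and near 0 for Gbp2b.

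Gbp2b, a GBP also known as mouse Gbp1, had a distribution over cell types unlike that of the other 9 genes. In epithelial/tumour-like cells it had 13 UMIs in 6114 control cells and 22 in 4563 knockout cells, or 0.118 and 0.256 CPM. The other 9 genes had between 7810 and 100498 UMIs in the same control cells. In the control library 56.9% of all Gbp2b UMIs were in monocyte/macrophage-like cells, where its level was 51.1 CPM (interval 42.5 to 61.0). cDC1-like cells followed at 27.8, and the intervals of neighbouring classes overlapped at each step of the control order. In the knockout library the order was neutrophil-like at 220.2, monocyte/macrophage-like at 132.8, migratory DC-like at 58.1 and cDC1-like cells at 23.6 CPM, and the intervals of the first 4 were separate from one another. Over all kept cells Gbp2b had 218 control and 787 knockout UMIs, 1.29 and 6.09 CPM, a ratio of 4.71 (interval 4.05 to 5.50).

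In neutrophil-like cells, 9 of the 9 genes with at least 20 UMIs were at least 2 times higher in the knockout library (a ratio with 1 UMI added to each sum), where 7.82% of the 5587 genes counted that deeply in the class were, and none was at least 2 times lower, where 6.98% were. Since Gbp2b in this class led to the choice of the family, this count is a description and is read no further. Gbp2b had 3 UMIs in 291 control cells and 99 in 181 knockout cells, 3.75 and 220.2 CPM, a ratio of 58.8 with a counting interval from 19.5 to 290. The control value rests on 3 UMIs in 2 cells. A Gbp2b UMI was seen in 0.687% of control cells (exact Clopper-Pearson interval 0.0833 to 2.46) and in 44 knockout cells, or 24.3% (18.3 to 31.2). With each cell thinned to 1000 UMIs the shares were 0.722% and 15.6%, with 14 control and 2 knockout cells left out as too shallow. In epithelial/tumour-like cells, where Gbp2b was near 0, 13 of 6114 control cells and 19 of 4563 knockout cells had a UMI of it.

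Among the other GBPs, which cooperate on membranes, Gbp5, a GBP linked to inflammasome activation, went from 39 to 108 UMIs, 48.7 to 240.2 CPM (ratio 4.93, interval 3.39 to 7.31). Gbp3 went from 15 to 39 UMIs, 18.7 to 86.7 CPM (ratio 4.63, 2.50 to 9.04). Gbp2, a vacuole-coating GBP, went from 131 to 241 UMIs, 163.6 to 535.9 CPM (ratio 3.28, 2.64 to 4.08). Gbp7 had the smallest ratio of the 9, 2.26, with 81 and 103 UMIs. Gbp4 was the exception, with 7 control and 4 knockout UMIs, 8.74 and 8.90 CPM.

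The 3 regulatory IRGs had closely similar ratios in neutrophil-like cells. Irgm1 went from 53.7 to 155.7 CPM (ratio 2.90, interval 1.96 to 4.34), Irgm2 from 73.7 to 197.9 (2.69, 1.91 to 3.80) and Igtp from 74.9 to 200.1 (2.67, 1.91 to 3.77). The effector Iigp1 went from 23.7 to 71.2 CPM on 19 and 32 UMIs. These Iigp1 levels were 2.61% and 6.54% of those in epithelial/tumour-like cells of the same library. Levels under 10% of a library's highest class were not read as expression here, because RNA free in the cell suspension can give them, and Gbp4 in both libraries and control Gbp2b fell under the same limit.

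Marker levels moved with this class. Summed neutrophil markers were 165000 CPM in control and 82510 in knockout neutrophil-like cells, and T cell markers were 28.7 and 175.7, with 7 of 9 at 0 in the control and 1 of 9 in the knockout library. The part of these markers in the result was not tested. Monocyte/macrophage markers were 698.2 and 649.3. In the knockout library Gbp2b was at 132.8 CPM in monocyte/macrophage-like cells and at 12.4 in T-like cells, the latter under the 10% limit. The class consisted of 3 clusters whose shares differed between the libraries. L17, led by Cxcl2, G0s2, Il1b and Acod1, was 134 of 291 control and 138 of 181 knockout cells. L5, led by S100a9, Retnlg and Cxcr2, was 103 and 32 cells, and L11, led by S100a9, Camp and Ngp, was 54 and 11.

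Within L17 the sum of the 10 genes was 1711 CPM in control and 2905 in knockout cells, a ratio of 1.70 (interval 1.50 to 1.93) against 3.41 for the whole class. With the 3 clusters given the same weights in both libraries, an alternative chosen after seeing the data, the class ratio was 1.73. Of the 9 genes, 4 were then past 2 times. A stricter cell filter left 75 control and 44 knockout cells and gave a class ratio of 5.81. With it 5 genes were past 2 times, counted only among those that still had at least 20 UMIs. In L17, Gbp2b was 13.8 and 347.2 CPM, on 3 and 98 UMIs (ratio 25.1, interval 8.34 to 124). It was carried by 43 of the 138 knockout cells there against 2 of the 134 control cells. Gbp5 had a ratio of 2.14 (1.46 to 3.20), Gbp3 of 2.31 (1.17 to 4.87) and Gbp2 of 1.53 (1.22 to 1.93). For Gbp7, Igtp, Irgm1 and Irgm2 the ratios lay between 1.21 and 1.39 and each interval included 1. Neutrophil markers in L17 were 27830 CPM in control (interval 27130 to 28540) and 24030 in knockout cells (23460 to 24610). Monocyte/macrophage markers were 447.2 and 690.8, and Ly6c2, a gene of that marker list, was 69.2 and 148.8. T cell markers in L17 were 0 UMIs in the control and 27 in the knockout library (95.7 CPM), and C1qa, a macrophage gene, had 0 and 12 UMIs. The part of these genes in the L17 values was not tested. In L5 the sum was 272.9 and 641.1 CPM on 48 and 40 UMIs, and in L11 it was 93.2 and 142.8 on 38 and 15 UMIs.

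**Figure D2:**
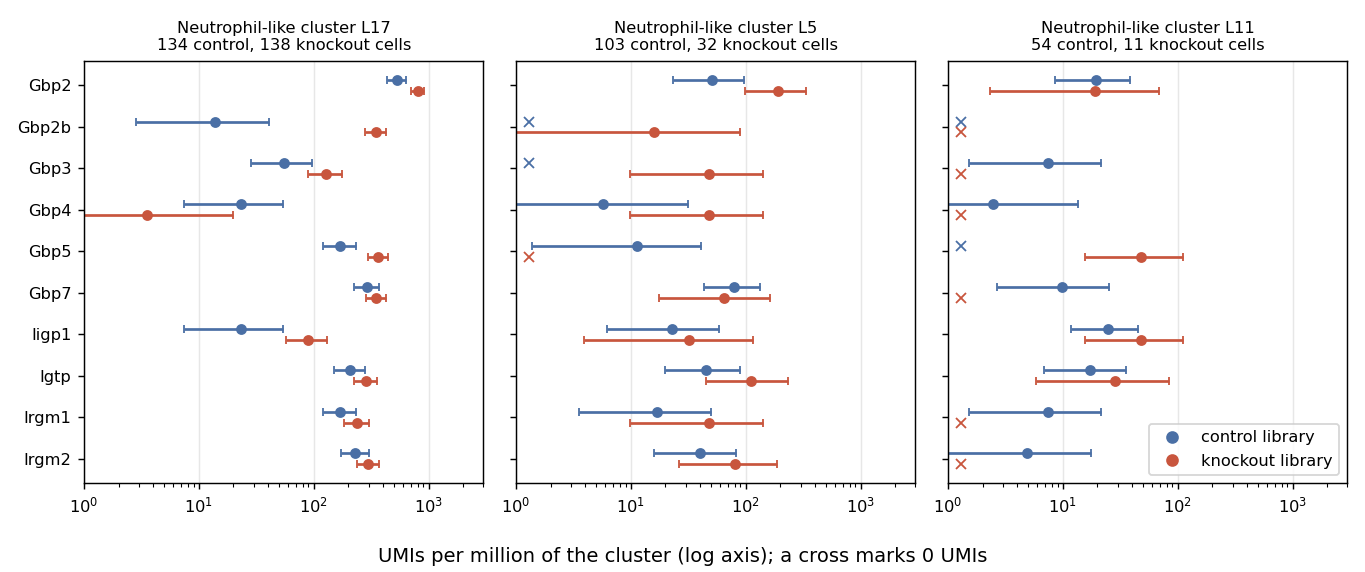
Level of each of the 10 genes in the 3 neutrophil-like clusters, in CPM of the cluster on a log axis, for the control and knockout libraries, with exact 95% Poisson intervals (cut at the left edge of the axis) and a cross where a gene had 0 UMIs. Gbp2b in L17 was 13.8 in control and 347.2 in knockout cells, while the intervals of Gbp7, Igtp, Irgm1 and Irgm2 overlapped between libraries.

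Of the 44 knockout neutrophil-like cells with a Gbp2b UMI, 43 were in L17. The cell with the most Gbp2b held 11 of the 99 UMIs, and 5 cells held 32.3%.

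In monocyte/macrophage-like cells, 1 of the 10 genes was at least 2 times higher in the knockout library, against 2.75% of all genes, and none was at least 2 times lower, against 3.43%. The 1 gene was Gbp2b, with 124 UMIs in 507 control cells and 372 in 548 knockout cells, 51.1 and 132.8 CPM (ratio 2.60, interval 2.11 to 3.21). With clusters weighted alike in both libraries its log2 ratio fell from 1.37 to 0.96 and no gene was past 2 times, and with cells thinned to 1000 UMIs it was 0.82. A Gbp2b UMI was seen in 11.2% of control and 25.9% of knockout cells, and in 5.88% and 10.99% after thinning to 1000 UMIs. Gbp5 followed at 58.6 and 108.2 CPM (ratio 1.85, 1.51 to 2.27), then Irgm2 at 1.71 and Gbp4 at 1.58. Iigp1 lay in the other direction at 261.0 and 214.5 CPM (ratio 0.822, 0.734 to 0.921), and the intervals of Igtp and Irgm1 included 1.

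Cluster shares and other markers differed between the libraries in this class too. L0 held 176 control and 116 knockout cells, L1 115 and 159, L15 53 and 153, and L3 163 and 120. T cell markers were 12.4 and 49.3 CPM, acinar markers 14.0 and 140.7 and epithelial/tumour markers 453.6 and 221.0, and their part in the result was not tested.

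Gbp2b was higher in the knockout library in all 4 monocyte/macrophage-like clusters, whereas the sum was not. In L0, led by Mmp12 and Arg1, Gbp2b was 27.7 and 66.8 CPM while the sum of the 10 was 777.8 and 766.9. In L1, led by Ccl8 and the C1q genes, Gbp2b was 118.6 and 200.8 while the sum was 1155 and 1149. In L15, led by Arg1 and Fcgr1 and with the highest Ly6c2 levels of the 4, Gbp2b was 81.6 and 184.3 and the sum was 1104 and 1633. L3, a shallow cluster with a median of 1670 UMIs per cell, had 51.3 and 73.2 for Gbp2b, with an interval of the ratio that included 1, and 950.3 and 1487 for the sum.

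Fibroblast-like cells went the other way. The sum of the 10 was 623.2 CPM in 670 control cells and 400.7 in 763 knockout cells (ratio 0.643, interval 0.615 to 0.672). For 7 of the 10 genes the interval lay below 1. How many of all genes had such an interval was not counted, so that number is not read as particular to the 10. Of the 10, 1 gene, Iigp1, was at least 2 times lower, where 6.49% of all genes in the class were. Iigp1 had 2520 and 926 UMIs, 249.8 and 123.9 CPM (ratio 0.496, 0.460 to 0.535), just past the limit. Its log2 ratio of -1.01 became -0.98 with the loose cell filter, -0.47 with doublets kept, -0.24 thinned and -0.88 with clusters weighted alike, so the call rests on the settings. Igtp had 65.1 and 33.0 CPM (ratio 0.507). Gbp2 was 103.2 and 65.6, and Irgm2 was nearly level at 37.4 and 36.8. Gbp7 lay slightly higher at 49.0 and 58.9 CPM. Gbp2b was at least 2 times higher, as were 8.15% of all genes, with 40 and 107 UMIs or 3.97 and 14.3 CPM (ratio 3.61, 2.49 to 5.33). Both levels were under 10% of the highest class of their library, and after thinning to 1000 UMIs the shares of cells with a Gbp2b UMI were 0.753% and 1.19% with overlapping intervals.

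Other values moved with the fibroblast-like result. Epithelial/tumour markers in these cells were 674.3 CPM in the control and 236.7 in the knockout library, and monocyte/macrophage markers were 27.5 and 14.7. Neutrophil markers were 75.7 and 167.1, T cell markers 5.25 and 32.1 and acinar markers 27.1 and 66.5. Of 10 housekeeping genes, 2 were at least 2 times lower, where 6.49% of all genes were. These were the glycolytic genes Gapdh and Pgk1, at ratios of 0.385 and 0.403. The median log2 ratio of the housekeeping genes was -0.317, against 0.098 for all genes in the class. The part of these markers and genes in the result was not tested. Cluster C12, led by Dcn, Col1a1 and Saa3, was 262 of the 670 control cells and 45 of the 763 knockout cells, with sums of 740.7 and 639.3 CPM. Cluster C15, led by Dcn, Col1a2 and Mfap5, had 504.0 and 386.7. The sum was thus lower in both clusters, at ratios of 0.863 (0.759 to 0.978) and 0.767 (0.726 to 0.810). Gbp2b in C12 was 0.197 and 48.3 CPM, on 1 and 20 UMIs (ratio 245, interval 39.2 to 10160). In C15 it was 7.79 and 12.3 CPM, on 39 and 87 UMIs (ratio 1.58, 1.07 to 2.37). Unlike the level of the whole class, the C12 knockout level was above the free-RNA limit. The highest knockout class was neutrophil-like cells at 220.2 CPM.

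The 9 genes other than Gbp2b differed little in epithelial/tumour-like cells. Gbp7 had the largest ratio of them, 1.28 (interval 1.26 to 1.31), on 19896 and 19851 UMIs, and Gbp3 followed at 1.25. Iigp1 was 910.4 and 1088 CPM (ratio 1.20), Irgm1 was 180.8 and 183.0, and Irgm2 was 84.8 and 87.2, the last 2 with intervals that included 1. Gbp2b was the 1 gene at least 2 times higher, on 13 and 22 UMIs, where 4.93% of all genes in the class were, and its level was under 10% of the highest class. None was at least 2 times lower, against 2.43% of all genes.

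The tumour clusters differed widely from each other in the summed level. Cluster C3, whose leading genes included the interferon-induced Ifit3, Ubd and Ifit1 and also Iigp1, carried the 10 genes at 5935 CPM in control and 5435 in knockout cells, while C8 carried them at 1380 and 1120. C3 was 638 of 6114 control cells and 815 of 4563 knockout cells. Of the 8 clusters, 5 had a higher sum in the knockout library with an interval above 1 and 3 (C3, C8 and C22) a lower one. The ratios ran from 0.255 in C22, a small cluster of 41 and 51 cells led by Tff2, to 1.65 in C13.

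**Figure D3:**
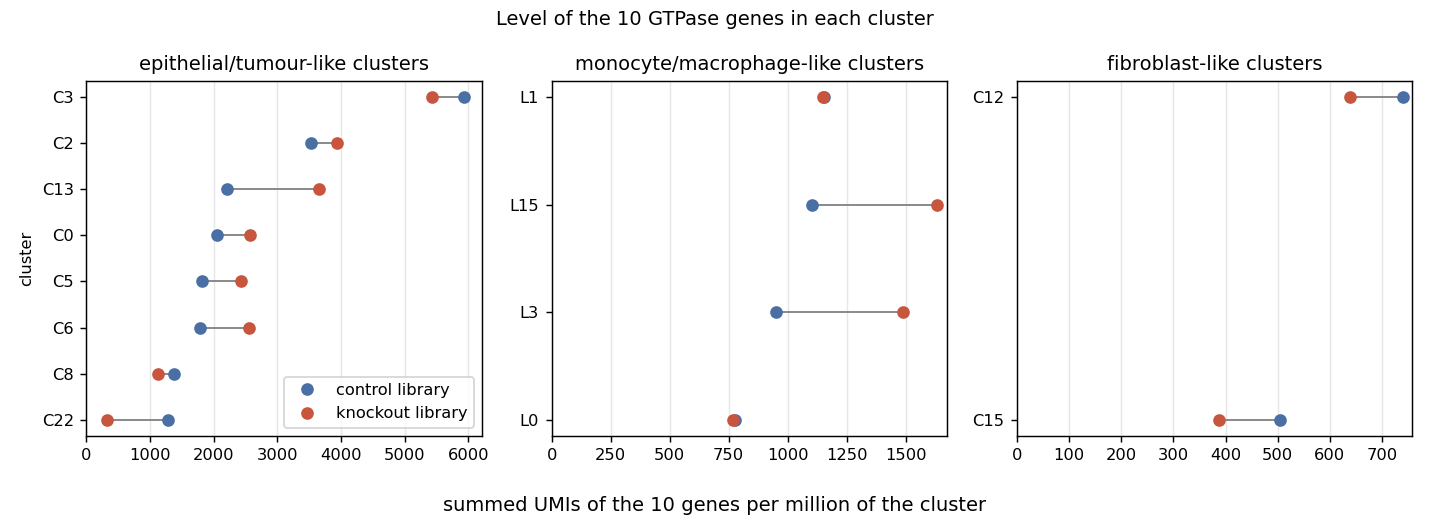
Summed level of the 10 genes in CPM of each cluster, for the epithelial/tumour-like, monocyte/macrophage-like and fibroblast-like clusters; points are the control and knockout libraries, joined by a line. C3 was highest in both libraries (5935 and 5435), L0 and L1 nearly coincided, and both fibroblast-like clusters were lower in the knockout library.

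Lymphoid and dendritic classes showed few differences in the family. None of the 10 genes was past 2 times in T-like cells in either direction (4.48% of all genes were higher and 5.74% lower), and all 10 intervals included 1, with 186 control cells against 1605 knockout cells. Their sum was 510.7 and 613.1 CPM (ratio 1.20, 1.07 to 1.35). The T-like clusters had different shares in the 2 libraries: L16, led by Cd8b1 and Cd8a, was 101 control and 559 knockout cells, L10 was 17 and 393, and L8 was 24 and 348. In L16 the sum lay in the other direction, at 532.3 and 452.5 CPM (ratio 0.850, 0.728 to 0.997). In cDC1-like cells, with 54 and 118 cells, none of the 9 genes with 20 UMIs was past 2 times (3.65% of all genes were higher and 3.48% lower). Gbp2 was 67.3 and 35.0 CPM there, at a ratio of 0.520 (0.315 to 0.870), with the knockout level under 10% of the highest class, and Gbp2b was 27.8 and 23.6. In plasma-like cells 1 of 9 genes, Gbp4, was at least 2 times lower (3.22% of all genes) and none higher (12.9%), while 7 of the 10 control levels were under 10% of the highest class.

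**Figure D4:**
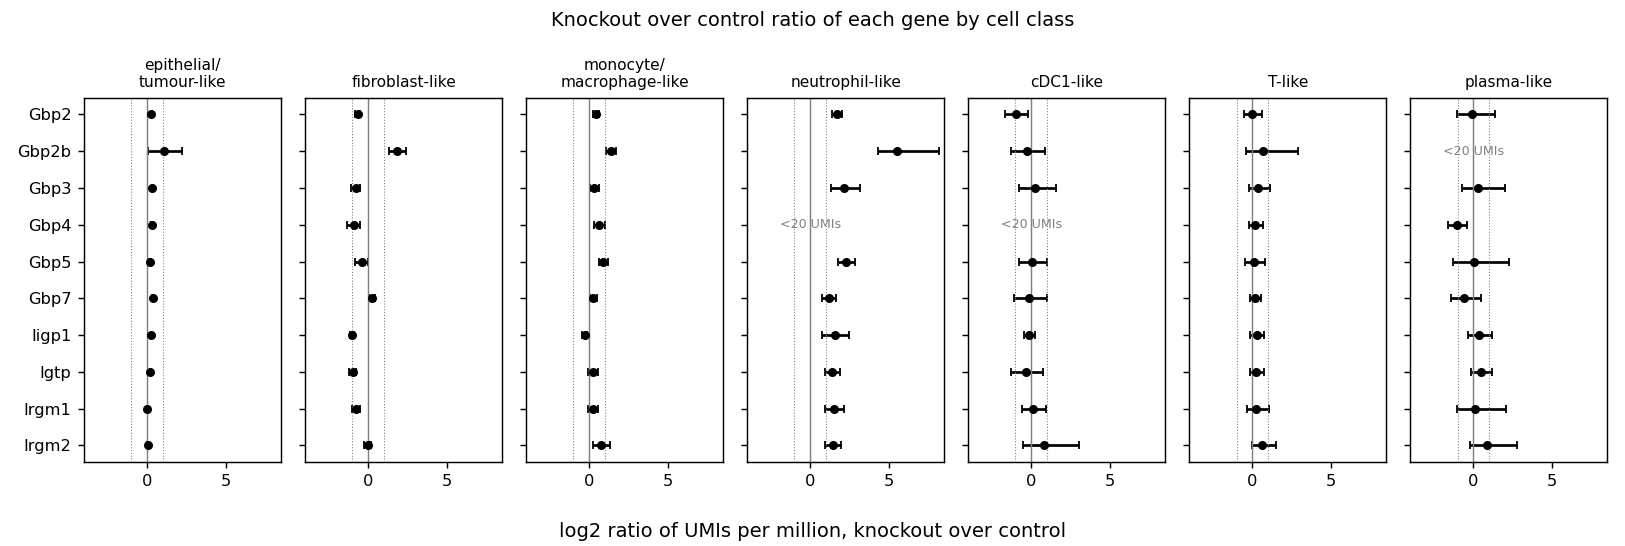
Log2 ratio of CPM, knockout over control, for each of the 10 genes in the 7 compared classes, with 1 UMI added to each sum; bars are exact 95% intervals of the ratio without it, the solid line marks no difference and dotted lines mark 2 times. Neutrophil-like cells lie to the right for the 9 genes counted, fibroblast-like cells to the left for 8 of 10, and Gbp2b lies farthest right in 5 of the 7 classes.

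The GTPases were set beside other interferon genes, in lists chosen with earlier results known. The median log2 ratio of the 10 genes was 1.56 in neutrophil-like, 0.39 in monocyte/macrophage-like, 0.26 in epithelial/tumour-like and -0.72 in fibroblast-like cells, and the medians of all genes in those classes were -0.03, -0.02, -0.04 and 0.10. Of the 13 other GBP and IRG genes in the files, 11 had enough UMIs in monocyte/macrophage-like cells. Of these, 2 were at least 2 times higher, where 2.75% of all genes were: Tgtp2 (7.83 and 17.5 CPM) and Gm5431 (9.07 and 27.5). In neutrophil-like cells 1 of the 13 had enough UMIs.

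Type I interferon response genes were at least 2 times higher in 14 of 20 cases in monocyte/macrophage-like cells and in 9 of 13 in cDC1-like cells, against 2.75% and 3.65% of all genes. Of the GTPases, 1 of 10 and 0 of 9 were. In neutrophil-like cells it was 15 of 19, against 7.82% of all genes, with Rsad2, an antiviral enzyme, at 568.3 and 3282 CPM. Among interferon gamma response genes outside the 2 families, 11 of 15 were at least 2 times higher in neutrophil-like cells, against the same 7.82%. They included the chemokine gene Cxcl10 at 92.4 and 593.7 and Cd274, the gene for PD-L1, at 519.6 and 2113 CPM. In monocyte/macrophage-like cells 2 of 19 genes of this list were at least 2 times higher, against 2.75% of all genes. These were Cxcl9 at 321.6 and 1009 CPM and Cxcl10 at 163.3 and 549.0 CPM. In fibroblast-like cells 3 of 19 were at least 2 times lower, where 6.49% of all genes were, including Cxcl10 at 53.22 and 12.04 CPM.

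Of the 10 interferon gamma signalling genes reported here with enough UMIs in neutrophil-like cells, 4 were at least 2 times higher (7.82% of all genes) and none lower (6.98%). Socs1, a feedback inhibitor, was 43.7 and 97.9 CPM, Irf9 was 52.5 and 120.1, and Stat2 was 46.2 and 95.6. The fourth, Irf8, a factor of monocyte and dendritic cell development, had 0 and 31 UMIs, so that with 1 UMI added its log2 ratio of 5.83 was above the 5.48 of Gbp2b. Its knockout level of 68.9 CPM was 4.46% of that in the highest class, under the 10% limit. Irf1 was 403.4 and 782.8 CPM.

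Ifng, the ligand gene, was found chiefly in T-like cells, which held 80.9% of its control and 88.2% of its knockout UMIs. Its level was 570.5 CPM in control and 185.2 in knockout T-like cells (ratio 0.325, interval 0.289 to 0.366), while over all kept cells it was 2.73 and 10.9. T-like cells numbered 186 and 1605, with the different cluster shares given above. In L16, the cluster with the highest Ifng in both libraries, it was 935.8 and 425.2 CPM. Ifngr1, a receptor subunit gene, was 108.7 and 129.0 in neutrophil-like and 98.1 and 96.7 in monocyte/macrophage-like cells.

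Across the 18 combinations of class and library with at least 50 cells, the genes most like Gbp2b by Pearson correlation of log2(CPM + 10) were Trafd1 (0.841), Sgpl1 (0.837), Gm10634 (0.832), Gm47428 and Plekhm2 (both 0.820). For Gbp2 they were Hbegf (0.954), Ifit1 (0.948), Bri3 (0.934), Mapk3 (0.923) and Oasl2 (0.915). Gbp2 correlated with Gbp3 at 0.901 and with its chromosomal neighbour Gbp2b at 0.225. Gbp2b was closest to Gbp5 among the 10, at 0.635, and lay below 0 with Gbp4 (-0.337), Igtp (-0.151) and Iigp1 (-0.132). These points come from 2 libraries and differ in depth, so the values are a description.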

How the data were processed

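The authors deposited raw UMI counts per gene and barcode for both libraries. The submitters' processing notes name Cell Ranger 3.1.3 and mm10, while the file headers name Cell Ranger 8.0.0; the annotation release is not given in the sources used here. Gene and barcode names came from the deposited lists, which hold other, non-numeric entries and no scores. The libraries held 13766 and 12251 barcodes with 173934025 and 137527647 UMIs. The 10 genes, the gene lists and the comparisons were chosen with earlier results of these data known.

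The cell filter required 500 detected genes and allowed up to 15% of a cell's UMIs from mitochondrial genes, and Scrublet doublets (148 control, 341 knockout) were removed. With scanpy 1.11.5, counts were scaled to 10000 per cell and log-transformed; 2000 variable genes (without the 10 genes and their relatives), 30 components and 15 neighbours fed Leiden clustering at resolution 1, without batch correction, and leukocytes were clustered again. Clusters were named from a fixed marker list. The scoring was set after the clusters were seen, as were 2 rules that leave a cluster unnamed: equal numbers of leading markers of 2 classes, and a leukocyte cluster sharing at least 3 leading genes with tumour clusters. Levels are class sums per 1000000 UMIs with exact Poisson intervals, and ratios have exact conditional intervals. Classes with at least 50 cells in both libraries and genes with at least 20 UMIs were compared. A log2 ratio adds 1 UMI to each sum. Of the lists, genes were named when past 2 times with at least 50 UMIs and above the 10% limit, at most 3 per list and class; the 5 most correlated genes were named among those with at least 200 UMIs. The ratio calculation was run on counts simulated with Poisson error alone. Such counts hold no differences between mice or cells, so the run cannot speak to those. Alternatives changed the cell filter, doublets, clustering, naming, weighting, depth, scaling (edgeR 4.0.16 TMM factors), pseudocount and minimum count. A gene of the interferon gamma signalling list is not reported here.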

Additional observations from a re-analysis of the deposited data

Results flagged for a closer look

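Iigp1 moved in opposite directions in 2 classes. Its log2 ratio, knockout over control, was 1.56 (1.555 before rounding) in neutrophil-like cells and -1.01 in fibroblast-like cells. The difference was not tested, since there was 1 library per group. The neutrophil-like value rests on 19 and 32 UMIs, at levels under 10% of those in epithelial/tumour-like cells.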

How the results depend on the processing

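Over 84 results and 938 alternative values, 697 were taken as the same, 233 moved and 8 changed sign where the interval of the reported ratio did not include 1. For ratios and shares, the same means within the counting interval. For counts of genes past 2 times, it means an equal or nearly equal count. Another 80 values, from 22 pairs of gene and class whose interval did include 1, also changed sign and are counted among the 697 and 233. The ratio of the sum kept its direction in each of the 5 classes with at least 100 cells per library, but its size in neutrophil-like cells did not hold: from 3.41 it became 5.81 with the strict cell filter, 2.97 when cells were named one by one (by own markers), 2.53 as a mean over cells, 2.56 with cells thinned to 1000 UMIs and 1.73 with clusters weighted alike. The last, chosen after seeing the data, removes the change in cluster shares by construction. For the other values the cause was not tested.

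In epithelial/tumour-like cells the ratio was 1.22 with the strict and 1.20 with the loose filter, 1.23 with doublets kept, 1.20 with the 10 genes among the variable genes, 1.28 by own markers, 1.14 as a mean over cells, 1.13 thinned, 1.22 with TMM, 1.14 with clusters weighted alike and 1.25 with the unnamed tumour clusters added (also chosen after seeing the data). In fibroblast-like cells it was 0.590 strict, 0.855 with doublets kept, 0.759 as a mean over cells, 0.871 thinned, 0.601 with TMM and 0.806 with clusters weighted alike. In monocyte/macrophage-like cells it was 1.19 strict, 1.18 by own markers, 1.39 as a mean over cells, 1.42 thinned and 1.15 with clusters weighted alike.

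Gbp2b in neutrophil-like cells had log2 ratios from 4.07 (with 10 CPM added) to 5.62, and its share in knockout cells was 24.3% without thinning. When cells were thinned, signs changed for Gbp2b (-0.58) and Gbp5 (-0.13) in epithelial/tumour-like cells, Gbp4 (0.59) in fibroblast-like and Gbp7 (-0.20) in monocyte/macrophage-like cells. That Gbp2b value rests on very few UMIs, since the gene had only 13 and 22 there before thinning. With clusters weighted alike, signs changed for Gbp5 in epithelial/tumour-like (-0.04) and Gbp2 in fibroblast-like cells (0.045). Signs also changed for Gbp5 in fibroblast-like cells with doublets kept (0.076) and for Iigp1 in neutrophil-like cells by own markers (-0.055).

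The count of genes at least 2 times higher in neutrophil-like cells fell from 9 to 5 with the strict filter and 4 with clusters weighted alike. In epithelial/tumour-like cells it was 0 at resolution 0.5, by own markers, as a mean over cells, thinned, with the larger pseudocount, with clusters weighted alike and at 100 UMIs. In fibroblast-like cells the higher count was 0 as a mean over cells, thinned and with the larger pseudocount. The lower count was 4 strict, 2 with TMM, and 0 loose, with doublets kept, by own markers, as a mean over cells, with the larger pseudocount and with clusters weighted alike. In monocyte/macrophage-like cells the higher count was 3 as a mean over cells, 2 thinned and 0 with clusters weighted alike. In cDC1-like cells 1 gene was higher by own markers and 1 lower strict, as a mean over cells and thinned; in T-like cells 1 was higher with clusters weighted alike. In plasma-like cells 1 was higher as a mean over cells, and the lower count was 7 strict and by own markers, 6 loose and at resolution 0.5, 4 with doublets kept and as a mean over cells, and 0 thinned and with the larger pseudocount. No paired analysis was possible because each group has 1 library.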
